A study of Danio rerio with 12 samples.

Results

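Chromatin accessibility of endodermal cells was compared with that of the remaining cells of the same kind of zebrafish embryo at the 3-somites stage. The comparison used 6 of the 12 ATAC-seq samples of the study, chosen by their labels. All embryos came from incrosses of Tg(sox17:GFP) fish, which carry GFP under the control of the sox17 promoter, and all 6 samples came from embryos kept in the solvent DMSO from early cleavage until the 3-somites stage. The 3 endodermal samples (called DMSO) held the sorted sox17:GFP+ cells and the 3 non-endodermal samples (NE) held the sox17:GFP- cells. The other 6 samples, used only where named, were GFP+ endodermal cells of embryos treated with retinoic acid (RA) or with BMS493, an inverse agonist of the RA receptors, with 3 samples each. The sox17:GFP line also marks the dorsal forerunner cells, so that the gate is not purely endodermal, and NE holds the ectoderm and the mesoderm together. In such sorted mixtures, fewer cells with an open region and a less open region in each cell cannot be told apart. The labels do not say whether the replicates came from separate clutches, and p-values therefore measure only the spread between these samples.

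The endoderm forms the lining of the gut and its organs, among them liver and pancreas. In zebrafish, Nodal signalling switches on sox32 in endodermal precursors, which in turn activates sox17, while Gata5 and Gata6 act beside it. In ATAC-seq, a transposase cuts DNA that is not wrapped in nucleosomes, so that active promoters and enhancers appear as peaks. Promoters are often open in many cell types, whereas distal enhancers tend to be open in a few.

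Peaks were called by the authors in each sample alone, with MACS2 and at a q-value threshold of 0.05. Overlapping peaks of the 12 lists (1 bp or more) were joined, which gave 245646 regions on the Zv9 assembly, of which 205896 were called in at least 1 of the 6 DMSO and NE samples. Peak heights were turned into percentile ranks, from 0 to 100, of the pileup (extended tags counted at the summit) within each list, and regions that a sample did not call were set to 0. A rank of 0 means that no peak passed the threshold and not that the region was closed. The lists held 51301, 110584 and 121433 peaks in DMSO replicates 1 to 3 and 95779, 143755 and 103930 peaks in NE replicates 1 to 3, from 11056595 to 22930744 tags after removal of duplicates. The number of peaks was 94439 ± 37751 (SD, n = 3) in DMSO and 114488 ± 25672 (n = 3) in NE (exact two-sided permutation test, p = 0.6). With 3 samples against 3 this test cannot give a p under 0.1. DMSO replicate 1 stood apart by its short list, and the counts by presence, the limma counts and those of endoderm-enriched genes are therefore also given without it or with all lists cut to its length. The other gene lists, the distances, the spacing and the windows were counted at the main setting alone.

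Most regions shared by all replicates of one cell population were also open in the other. All 6 samples called 33780 regions, while 2274 were called in all 3 DMSO and no NE sample (DMSO-only regions, 1.1% of the 205896) and 5814 in all 3 NE and no DMSO sample (NE-only regions, 2.82%). These are counts by presence, with no test for a single region. The balance between both sets moved with the setting. With the 51301 peaks of highest −log10(q) kept in every list, 3619 DMSO-only and 3724 NE-only regions were found, so that the DMSO side made up 49.3% instead of 28.1% of both. Without DMSO replicate 1 the counts were 9127 and 5963, and they were 7434 and 5450 when the remaining lists were also cut to equal length. Regions called in only 1 of the 6 samples were also frequent, with 49966 in a single NE list and 28932 in a single DMSO list.

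**Figure D1:**
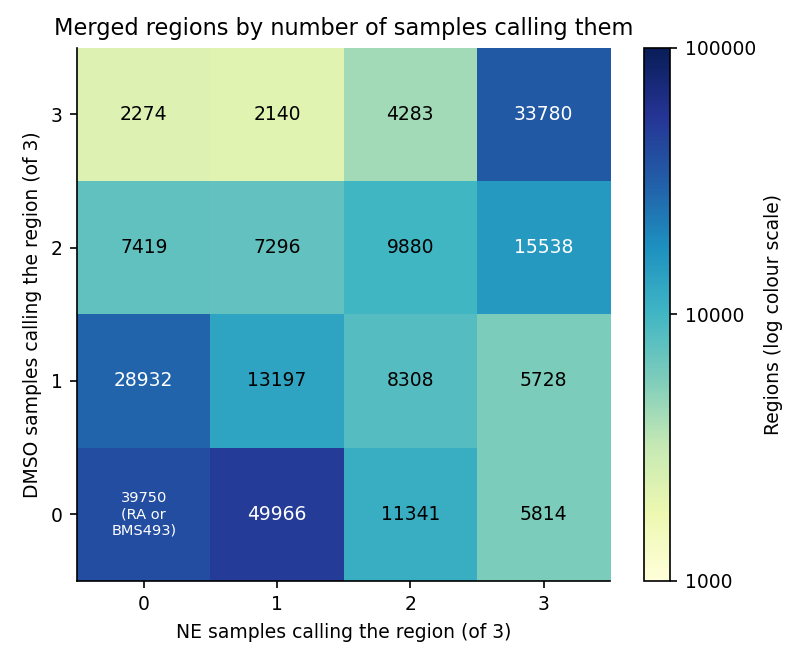
Number of merged regions by how many of the 3 DMSO samples (vertical axis) and of the 3 NE samples (horizontal axis) called them, on a logarithmic colour scale. The top right field holds the 33780 regions called in all 6, the top left the 2274 DMSO-only and the bottom right the 5814 NE-only regions. The 39750 regions of the bottom left field were called only in RA- or BMS493-treated samples.

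DMSO-only and NE-only regions had weaker peaks than the shared ones, and were narrower after merging. The median width was 333 bp in DMSO-only, 277 bp in NE-only and 435 bp in the regions called in all 6 samples. A merged region spans the peaks of all lists that called it, so that its width is not independent of the number of calls. The 6 treated samples added a mean of 4.87 calls to DMSO-only, 0.738 to NE-only and 5.75 to shared regions. In DMSO replicates 1 to 3, the median rank of the DMSO-only peaks was 27.1, 62.2 and 65.3, with a median pileup of 8, 14 and 14 tags. In NE replicates 1 to 3, the NE-only peaks had median ranks of 43.3, 54.6 and 43.7, with 10, 14 and 8 tags. The peaks shared by all 6 samples were taller in each of the 6 lists, with median ranks from 57.9 to 85.2. Many exclusive regions lay close to the calling threshold. Their weakest of 3 calls had a −log10(q) under 3 in 21.7% of DMSO-only and 26.5% of NE-only regions, against 7.73% (DMSO calls) and 4.39% (NE calls) of the shared ones.

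The RA- and BMS493-treated samples took no part in this choice and were also sorted as GFP+, and they give a separate reading of both sets in GFP+ cells. Of the 2274 DMSO-only regions, 1089 (47.9%, 95% Wilson interval 45.8 to 49.9%) were called in all 6 treated samples, 82.6% in at least 4 and 17 in none. Of the 5814 NE-only regions, 3446 (59.3%, 58.0 to 60.5%) were called in none of the 6, 80.1% in at most 1 and 3 in all of them. Among the regions called in all DMSO and NE samples, 84.2% were called in all 6 treated samples. A single treated sample called between 68.8% (RA replicate 3) and 92.2% (BMS493 replicate 2) of the DMSO-only regions and between 5.14% (BMS493 replicate 1) and 18.7% (RA replicate 1) of the NE-only regions, and these ranges did not overlap. Of all 205896 regions called in at least 1 DMSO or NE sample, a single treated sample called between 32.2% (BMS493 replicate 1) and 47.3% (BMS493 replicate 2). The share of DMSO-only regions called in all 6 depended on the short list. When DMSO replicate 1 was left out it was 19.0% of 9127 regions, and with lists of equal length it was 44.3%. The intervals cover counting error only, and neighbouring regions are not independent.

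**Figure D2:**
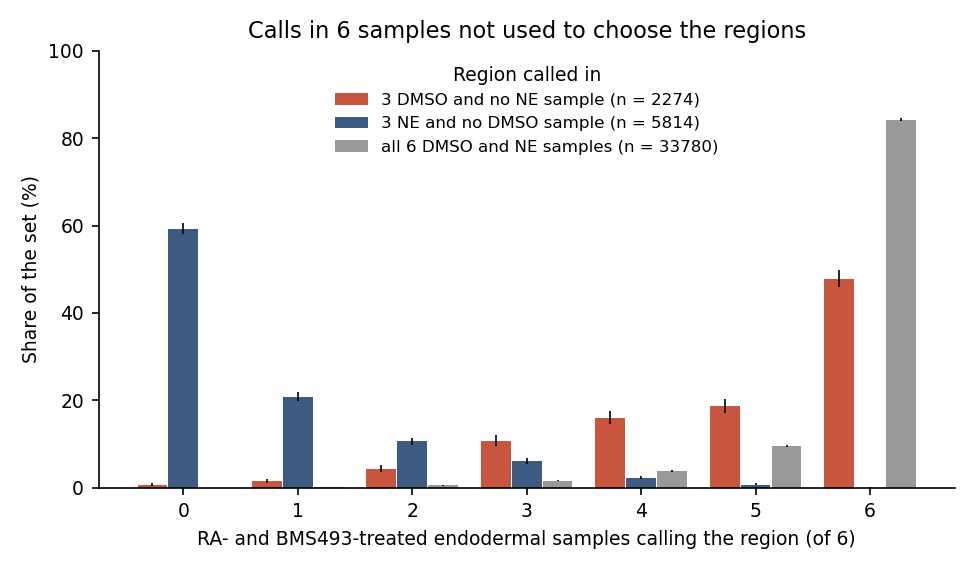
Share of each set (vertical axis, %) by the number of the 6 RA- and BMS493-treated endodermal samples that called the region (horizontal axis), with 95% Wilson intervals. DMSO-only regions pile up at 6 treated samples (47.9%) and NE-only regions at 0 (59.3%), while regions called in all 6 DMSO and NE samples were mostly called in all treated samples too (84.2%).

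The ranks were also tested region by region with limma on the 127026 regions called in at least 3 of the 12 samples. At a Benjamini-Hochberg adjusted p under 0.05, 2748 regions (2.16%) ranked higher and 6239 (4.91%) ranked lower in DMSO than in NE, or 7.07% in either direction. With lists of equal length, 4505 (6.68%) ranked higher and 4978 (7.38%) ranked lower, so that the share of higher calls went from 30.6% to 47.5%. Without DMSO replicate 1 it was 54.5%, with 5345 higher and 4470 lower. Without NE replicate 2, the longest list, 2473 ranked higher and 1935 lower. The limma calls rested on a spread estimated over all 12 samples. A fit of the 6 DMSO and NE samples alone called no region in either direction, with 5241 higher and 11817 lower at an unadjusted p under 0.05, against 7445 and 15913 in the fit of 12.

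At the main setting, the higher and the lower calls differed in how often the other group had a call. In 33.2% of the regions ranked higher in DMSO no NE sample had a call, and in 28.9% all 3 had one. Among those ranked lower in DMSO, 62.6% had no DMSO call and 1.86% had 3. The contrast was smaller with lists of equal length, where 1104 of 4505 higher and 460 of 4978 lower regions were called in all 6 samples. At the main setting, the short list of DMSO replicate 1 limits how often a lower region can have 3 DMSO calls. The regions ranked higher had a median rank of 81.3 in DMSO, 83.8 in RA, 83.5 in BMS493 and 12.1 in NE. The regions ranked lower had a median rank of 61.2 in NE and 0 in DMSO, RA and BMS493. The RA and BMS493 medians thus lay on the side of DMSO in both sets. The contrast used only the DMSO and NE means, but the filter and the spread used all 12 samples. These medians are therefore not independent of the choice of regions.

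Among the 33780 regions that all 6 samples called, where the difference is one of height, 795 (2.35%) ranked higher and 116 (0.343%) lower in DMSO. The median difference over these regions was −3.52 rank points, close to the −3.78 over all regions tested. With lists of equal length, 22669 regions were called in all 6, of which 1104 ranked higher and 460 lower, with a median difference of −0.50. The excess of higher calls among shared regions therefore stood beside a median that was slightly below 0 under both settings.

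The exclusive regions with the highest ranks were tall peaks, though far below the maximum pileup of 140 to 156 tags in these lists. On chr14:30173803-30174449, the ranks were 97.1, 99.5 and 94.8 in DMSO replicates 1 to 3, from pileups of 30, 50 and 32 tags, and no NE sample had a peak (difference 97.1 ± 7.78 (SE), limma adjusted p = 6.25e-06). This region was also called in all 6 treated samples, with 24 to 38 tags. It was the DMSO-only region with the highest rank in its weakest sample, and no gene with a known position lay near it. Positions were known for only 1674 genes, as described below, so that other genes may lie closer to this and the following regions. A region on chr12:44163364-44163855 lay at −18.7 kb from the start site of ebf3, an EBF transcription factor, and ranked 93.6, 96.8 and 97.5 in DMSO and 0 in every NE sample (limma adjusted p = 5.13e-06). Another, on chr15:15022378-15022765, lay within hnf1ba and is described with that gene. Of the 10 DMSO-only regions chosen in this way, 9 were called in all 6 treated samples and the hnf1ba region in 5. Over all 2274 DMSO-only regions, the share called in all 6 was 47.9%. The treated samples entered the spread behind the limma calls, so that the count among the 10 is not independent of the choice.

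On the NE side, chr24:24426582-24427047 ranked 97.4, 96.8 and 95.5 in NE replicates 1 to 3, from 36, 44 and 29 tags, and had no peak in DMSO (difference −96.6 ± 14.7 (SE), limma adjusted p = 0.000975). It was called in 3 treated samples, with 7 to 9 tags. The region on chr21:22571867-22572247 lay 13.5 kb downstream of the start site of zbtb16a, a zinc finger repressor that holds back neuronal differentiation in zebrafish. It ranked 95.4, 96.5 and 92.5 in NE and was called in none of the 9 endodermal samples (limma adjusted p = 0.000496). Of the 10 NE-only regions chosen in this way, 2 were called in no treated sample, against 59.3% of all 5814 NE-only regions. The region on chr8:36395155-36395410 ranked 95.9, 92.5 and 98.1 in NE and had no peak in DMSO, but 4 treated samples called it (limma adjusted p = 0.0215).

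Where all 6 samples had a peak, the widest difference was seen on chr1:10608772-10609158. It ranked 80.8, 94.6 and 90.4 in DMSO and 3.83, 18.0 and 6.58 in NE (difference 79.1 ± 9.81 (SE), limma adjusted p = 0.00019), from 16, 32 and 26 tags against 6, 9 and 5. Another lay at −25.9 kb from wnt2ba, upstream of its start site, which codes for a Wnt ligand. There the ranks were 83.4, 92.6 and 93.6 in DMSO against 3.83, 18.0 and 18.7 in NE (limma adjusted p = 4.04e-05). In the opposite direction, chr14:27302799-27303146 ranked 27.1, 10.4 and 11.9 in DMSO and 94.4, 95.5 and 95.5 in NE (limma adjusted p = 0.00275). The groups did not overlap in any of these regions, which were selected for the size of the difference.

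**Figure D3:**
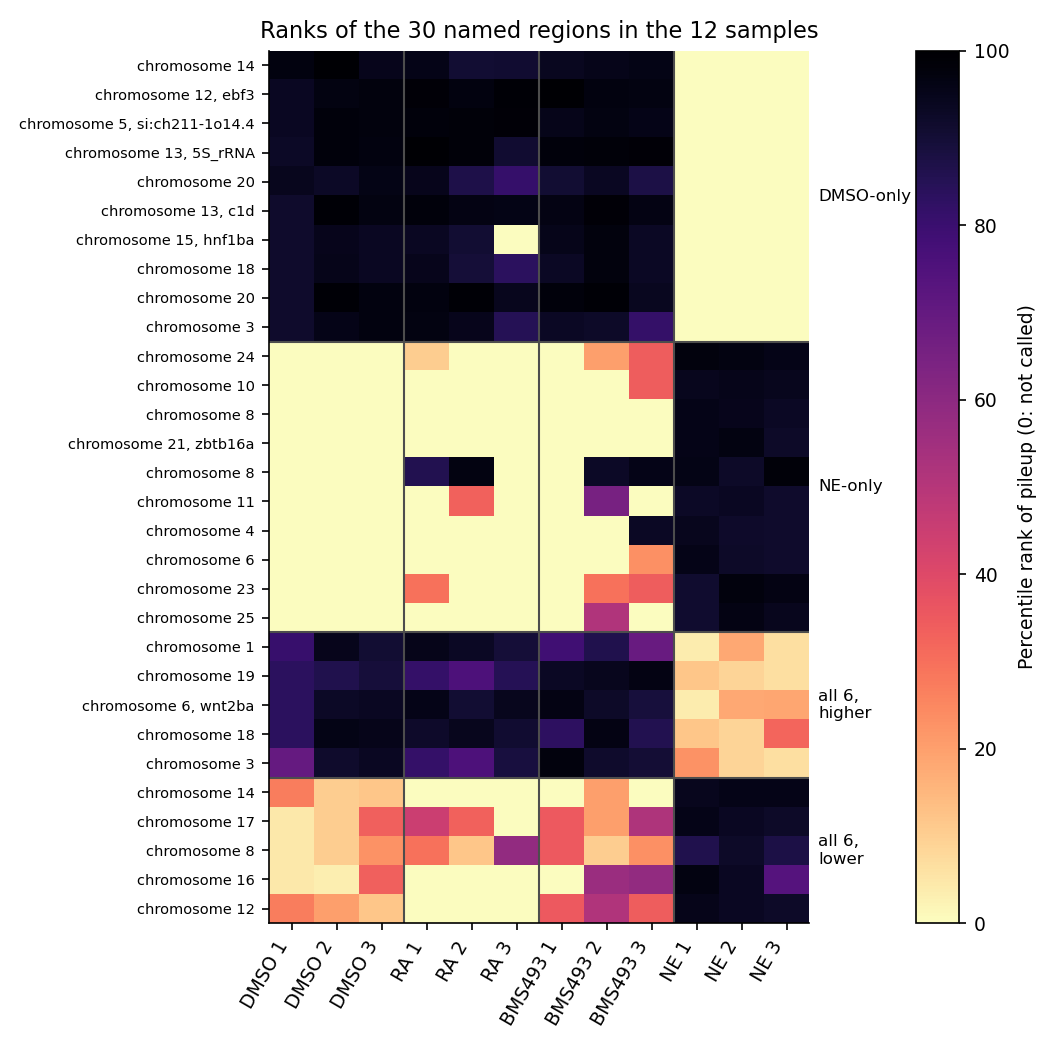
Percentile rank of the pileup (colour, 0 where no peak was called) of 30 regions in the 12 samples. From top to bottom these are the 10 DMSO-only and the 10 NE-only regions with the highest rank in the weakest sample, and the 5 regions per direction with the largest difference among those called in all 6 DMSO and NE samples. Genes are given where the start site of one with a known position lay within 50 kb. The RA and BMS493 samples look like DMSO in most rows, with the 4 calls on chromosome 8 as the clearest departure. Their ranks entered the limma spread, so that these rows are no separate reading of the treated samples.

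Genes were placed by their Zv9 positions in the supplementary tables of the study, which give 1674 genes. These were listed there because they lie near RA receptor sites or near regions that respond to RA or BMS493, and are no random sample of the genome. Genes with endoderm-enriched RNA at the same stage were taken by name from the RNA-seq table of the same work. Of 775 such genes, 125 had a position. That list was drawn from sorted cells of the same line and is not independent of the sort. Within 50 kb of the start site, 69 of the 125 endoderm-enriched genes (55.2%, interval 46.5 to 63.6%) had at least 1 region that ranked higher in DMSO, against 389 of the 1549 other genes (25.1%, 23.0 to 27.3%). At least 1 region that ranked lower lay near 34 of the 125 (27.2%, 20.2 to 35.6%) and near 609 of the 1549 (39.3%, 36.9 to 41.8%). Counted for each gene, 100 regions near the 125 genes ranked higher (5.47% of the 1829 tested there) and 44 lower (2.41%), whereas near the other genes 2.49% ranked higher and 5.07% lower. Over all regions the balance itself depended on the samples, with more higher than lower calls without DMSO replicate 1 or without NE replicate 2.

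The shares depended on the distance. Within 10 kb, 22.4% of the endoderm-enriched genes had a higher and 5.60% a lower region, against 6.91% and 11.8% of the others. Within 100 kb the shares were 73.6% and 58.4% against 38.9% and 58.7%. The share of endoderm-enriched genes with a higher region was above that of the other genes in each of the other fits with calls, for example with 74.4% against 39.0% without DMSO replicate 1 and 72.0% against 34.2% with lists of equal length. The share with a lower region moved more. With lists of equal length it was 32.8% against 34.1%, with nearly no difference, and without NE replicate 2 it was 8 of 125 genes against 17.0%.

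**Figure D4:**
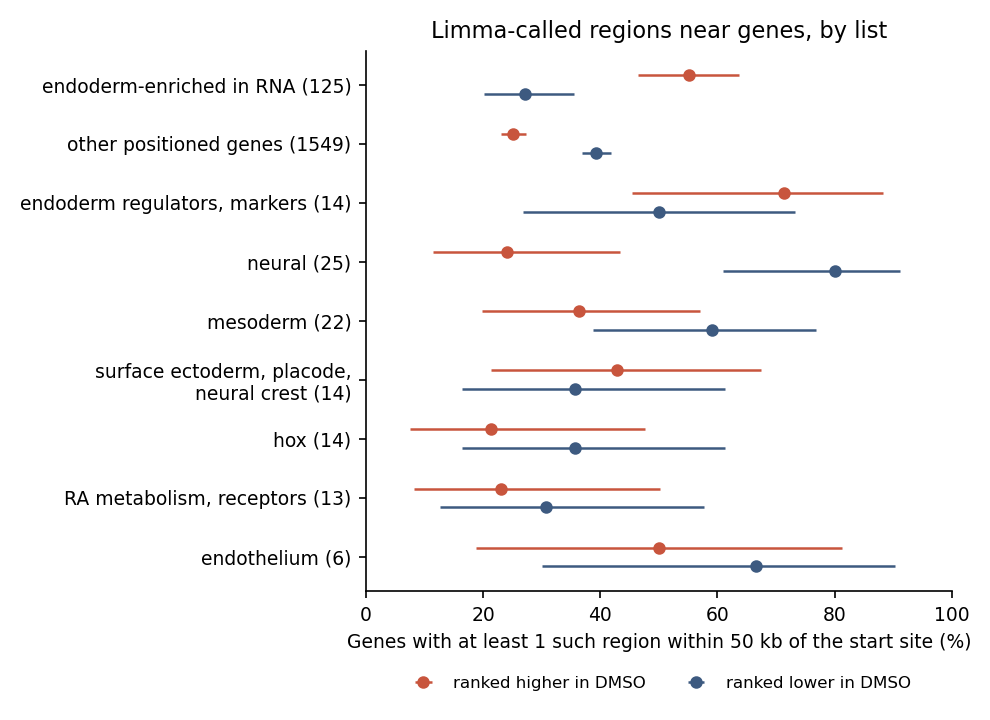
Share of the genes of each list (horizontal axis, %) with at least 1 region within 50 kb of the start site that limma called higher or lower in DMSO than in NE, with 95% Wilson intervals and the number of genes in brackets. Endoderm-enriched genes had mostly higher regions (55.2% against 27.2%) and neural genes mostly lower regions (6 and 20 of 25 genes). In the lists of 6 to 14 genes the intervals are wide.

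Of the 125 endoderm-enriched genes, 48 had 1 higher region, 14 had 2 and 7 had 3 or more. The 7 genes were sox32 with 5, tbx2a with 4, and gata6, hnf1ba, jag1b, quo and sema3fa with 3 each, and none of them had a lower one. They were picked by their counts. Among them, tbx2a codes for a T-box repressor, jag1b for a Notch ligand, and sema3fa for a secreted guidance cue. Genes outside the endoderm-enriched list reached such counts too. A 5S_rRNA gene had 5 higher regions and 1 lower, and stx16 had 4 higher and none lower. The number of such other genes with 3 or more higher regions is not given here. The markers set for the endoderm were 14 genes, of which 10 had a higher and 7 a lower region within 50 kb, with 20 regions against 10. Over all 1674 genes, 27.4% had a higher and 38.4% a lower region, so that the markers lay above these shares of genes in both directions. The markers had more regions each, with a median of 26.5 against 21. Of the regions tested near the markers, 8.70% ranked higher and 4.35% lower, against 2.75% and 4.84% near all 1674 genes. By region, only the higher share was thus above that of all genes. Higher calls outnumbered lower ones at 6 of the 14 markers and lower ones outnumbered higher ones at 4. The markers foxa2, sox17 and gata5 were not analysed here, as they had no Zv9 position in the tables used.

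At sox32, the Sox factor that specifies endoderm in zebrafish, 28 regions lay within 50 kb of the start site, of which 21 were tested and 5 ranked higher. The region 14.3 kb into and beyond the gene ranked 57.9, 89.9 and 87.0 in DMSO replicates 1 to 3, from 11, 26 and 23 tags, and no NE sample had a peak (difference 78.2 ± 16.2 (SE), limma adjusted p = 0.00576). The regions at 35.2 kb, 8.81 kb and −6.83 kb were also DMSO-only (limma adjusted p from 0.0154 to 0.0337). All 4 were called in all 6 treated samples. Close to the start site, at 1.19 kb, the NE samples had a peak too. This region ranked 69.7, 87.5 and 92.2 in DMSO and 57.6, 49.5 and 32.3 in NE, from 13, 24 and 28 tags against 12, 13 and 7 (limma adjusted p = 0.0109). The ranks did not overlap, although DMSO replicate 1 and NE replicate 2 had the same pileup of 13 tags. The 100 kb that hold this gene were among the 5 windows of the genome with the most DMSO-only regions, with 4 of them. The same window held 1 NE-only region, at −16.1 kb, which did not pass the test (limma adjusted p = 0.129). In the RefSeq annotation of a newer assembly (GRCz12tu), sox17 lies near sox32, with 1 other annotated gene between them, so that regions here cannot be assigned to one of both genes by distance alone.

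At gata6, a zinc finger factor of the early endoderm and heart, 26 regions lay within 50 kb on Zv9_scaffold3540, a piece of sequence not placed on a chromosome. The region at 25.5 kb ranked 83.4, 90.9 and 91.3 in DMSO and 0, 49.5 and 0 in NE (difference 72.0 ± 11.0 (SE), limma adjusted p = 0.000993). The regions at −25.3 and −28.7 kb were DMSO-only, with mean ranks of 82.3 and 82.1 (limma adjusted p = 0.00637 and 0.00508), and each was called in 5 of the 6 treated samples. The regions at the start site were called in NE as well and did not pass the test.

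At hnf1ba, a homeodomain factor of the gut tube, liver, pancreas and hindbrain, the region 13.1 kb downstream of the start site had the smallest adjusted p. It ranked 89.1, 95.1 and 98.6 in DMSO and 0, 0 and 43.7 in NE, from 20, 33 and 44 tags against 8 tags in NE replicate 3 (difference 79.7 ± 9.70 (SE), limma adjusted p = 0.00016). The region at 9.41 kb ranked 91.7, 94.6 and 93.6 in DMSO, from 22, 32 and 30 tags, and had no peak in NE (limma adjusted p = 0.00386). Both lay inside hnf1ba, which spans 15016164 to 15031978 on chromosome 15 on the minus strand, and whether they are exonic or intronic was not examined. Another, at −39.3 kb, was DMSO-only at a lower mean rank of 59.8 (limma adjusted p = 0.0207). The paralogue hnf1bb had no higher and 1 lower region.

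Higher regions also lay near mnx1 and cxcr4a. At mnx1, a homeobox gene needed for beta cells, the region at −12.2 kb ranked 83.4, 96.4 and 95.7 in DMSO and 0, 59.2 and 70.0 in NE (limma adjusted p = 0.0158). The groups did not overlap, but 2 NE samples had a peak. At cxcr4a, the Cxcl12 receptor through which endodermal cells migrate, the regions at 40.2 kb and −13.1 kb ranked higher (limma adjusted p = 0.00749 and 0.0406) and one at −29.0 kb ranked lower (limma adjusted p = 0.00877). Other markers had calls in both directions or none. For insm1b, an endocrine factor that is also neural, 2 regions ranked higher and 3 lower, and for met, the receptor of hepatocyte growth factor, 1 ranked higher and 2 lower, one of them at its start site. The liver gene fgg and the intestinal gene cldn15a had no call.

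**Figure D5:**
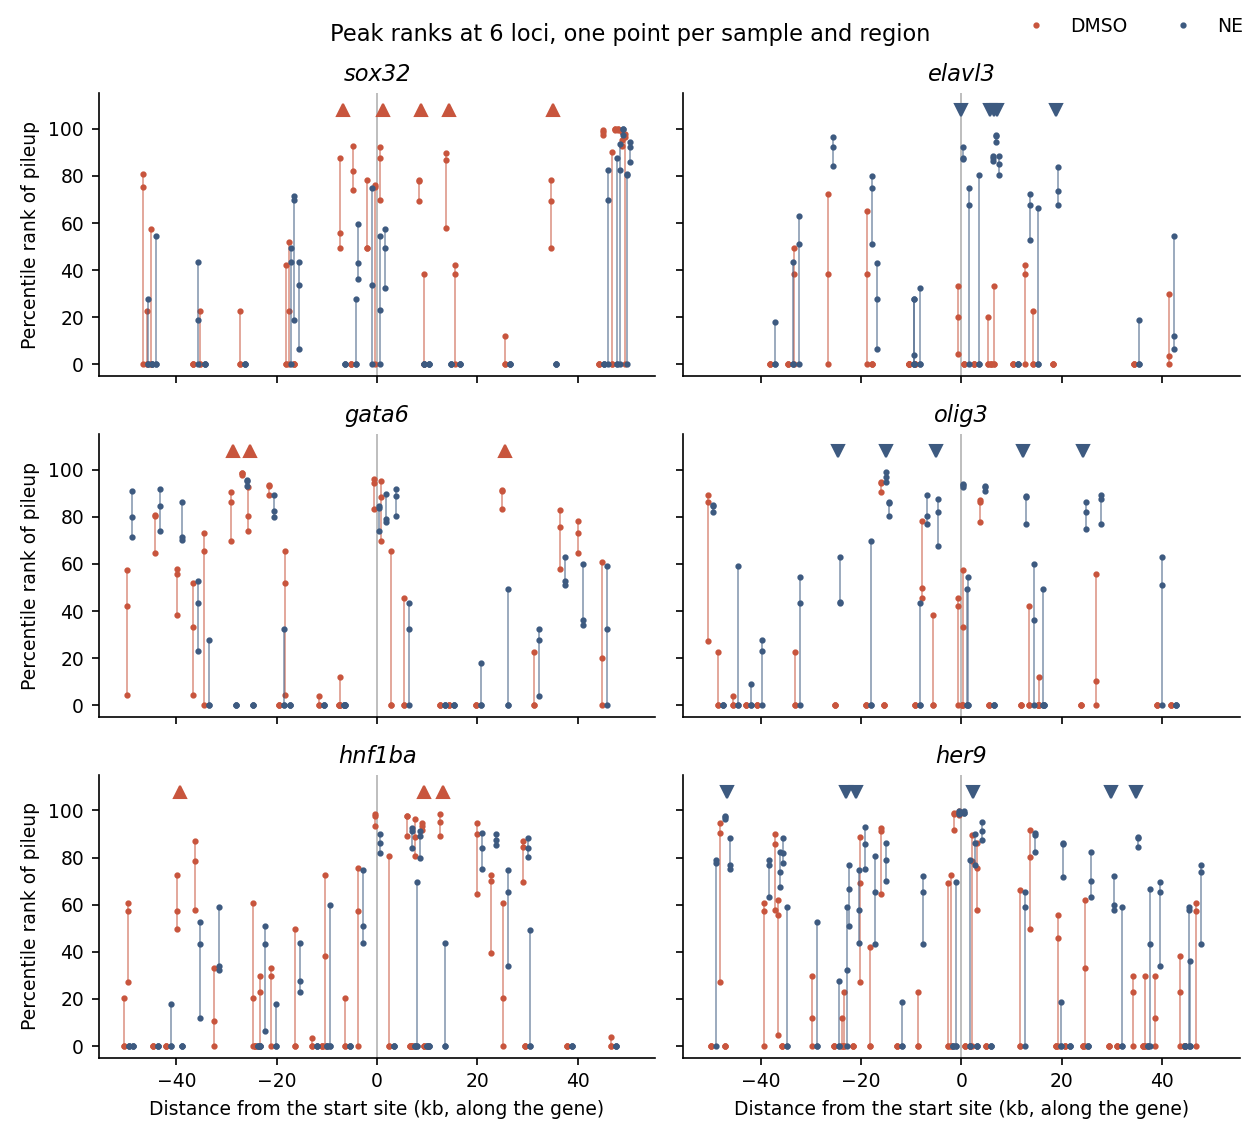
Percentile ranks of all regions within 50 kb of the start site of 6 genes, against the distance from the start site (kb, positive downstream along the gene), with one point per sample and a line from the lowest to the highest of the 3 samples. DMSO and NE points are shifted sideways by 0.5 kb each, and triangles mark regions that limma called higher (pointing up) or lower (pointing down) in DMSO. The called regions of sox32, gata6 and hnf1ba (left) all ranked higher and those of elavl3, olig3 and her9 (right) all ranked lower, while further regions of the same loci were open in both.

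Lower regions were frequent near neural genes. Of the 25 neural genes, 20 had a region within 50 kb that ranked lower in DMSO and 6 had one that ranked higher, with 50 regions against 10. These 50 made up 12.0% of the regions tested near these genes, against 4.84% near all 1674. The 10 higher regions made up 2.41%, against 2.75%. A higher region lay near 24% of the neural genes and near 27.4% of all 1674. Only the lower side thus stood apart from the shares over all genes. At elavl3, which codes for a neuronal RNA-binding protein, 5 of the 21 regions ranked lower and none higher. The region at 6.52 kb ranked 97.1, 97.3 and 94.5 in NE replicates 1 to 3, from 35, 46 and 27 tags, and 0, 0.332 and 0 in DMSO, where replicate 2 had a peak of 5 tags (difference −96.2 ± 13.7 (SE), limma adjusted p = 0.000643). The region at its start site (−0.107 kb) was called in all 6 samples. It ranked 87.7, 92.5 and 87.3 in NE and 4.55, 20.2 and 33.2 in DMSO, from 22, 34 and 19 tags against 6, 8 and 9 (limma adjusted p = 0.0128), without overlap.

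Lower regions also prevailed at proneural and progenitor genes. At her9, a Hes-type repressor of neural progenitors, 6 of 43 regions ranked lower, among them one 2.27 kb from the start site that ranked 90.1, 86.3 and 77.0 in NE and was called in none of the 9 endodermal samples (limma adjusted p = 0.000901). At olig3, a basic helix-loop-helix gene of the dorsal neural tube, 5 of 26 regions ranked lower, and the one at 24.4 kb ranked 74.96, 86.3 and 82.1 in NE and 0 in all 9 endodermal samples (limma adjusted p = 0.00103). The related olig2, of motor neuron and oligodendrocyte precursors, had 5 lower regions, neurog1 and sox21b had 4 each and pou3f3b had 3, and none of these genes had a higher one. Near egr2b, which marks hindbrain rhombomeres, the single lower region at −23.3 kb averaged 83.3 in NE and had no call in endodermal samples (limma adjusted p = 0.00092).

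A few neural genes went the other way. Higher regions outnumbered lower ones at 3 of the 25, ascl1b, neurod and lmx1bb, and lower ones outnumbered higher ones at 16. At lmx1bb, 2 regions ranked higher and 1 lower. Its region at −16.55 kb ranked 90.5, 96.8 and 92.9 in DMSO and 0, 63.1 and 0 in NE (limma adjusted p = 0.0016). At ascl1b, which in zebrafish also acts in pancreatic endocrine precursors, 3 regions ranked higher and none lower. The one at 28.8 kb ranked 94.4, 96.8 and 97.2 in DMSO and 51.1, 78.9 and 65.4 in NE (limma adjusted p = 0.00228), so that it was open in both populations. Likewise neurod, active in neurons and in endocrine cells, had 2 higher regions and no lower one. The region at −1.19 kb from neurod ranked 69.7, 76.0 and 69.2 in DMSO and 0, 43.4 and 0 in NE (limma adjusted p = 0.0114). At her6, a Hes-type repressor, a DMSO-only region at −7.65 kb averaged a rank of 90.1 and had a peak in every treated sample (limma adjusted p = 8.23e-05), while another at 35.4 kb ranked lower (limma adjusted p = 0.00762).

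Of the 22 mesodermal genes, 13 had a lower and 8 a higher region, with 30 regions against 12. Both shares of genes (59.1% and 36.4%) were above those over all 1674 genes (38.4% and 27.4%), and 8.57% of the regions tested there ranked lower and 3.43% higher, against 4.84% and 2.75%. At meox1, a homeobox gene of the somites, 5 regions ranked lower and none higher. The one at 42.1 kb ranked 91.2, 92.5 and 90.8 in NE and 0, 57.4 and 0 in DMSO (limma adjusted p = 0.0103). The muscle regulator myf6 had 4 lower regions, mef2cb 4 lower and 1 higher, and the segmentation gene her7 had 3 lower. Near pcdh8, a protocadherin of the paraxial mesoderm, a region at −3.20 kb averaged 75.8 in NE, with no peak in the 9 endodermal samples (limma adjusted p = 0.00163). Exceptions included osr1 and tal1, with 1 higher region each and no lower one. The region at 42.5 kb from osr1, a zinc finger gene of the early mesendoderm that is also on the endoderm-enriched list, ranked 97.1, 98.0 and 97.5 in DMSO and 51.1, 80.7 and 79.8 in NE (limma adjusted p = 0.0115).

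The remaining lists held few genes, and their counts are read against the 27.4% of all 1674 genes with a higher and the 38.4% with a lower region. Among 14 genes of surface ectoderm, placodes and neural crest, 6 had a higher (42.9%) and 5 a lower region (35.7%), with 7 regions each. Higher calls outnumbered lower ones at 5 of these genes and lower ones outnumbered higher ones at 4. At tp63, perp, eya1 and alx1, 1 region each ranked higher and none lower, and gata3 had 2 higher and 1 lower. In contrast, foxi3b, a gene of ionocyte precursors, had 1 higher and 2 lower regions. A region 4.12 kb from the start of tfap2c also ranked lower (mean rank 73.7 in NE and 0 in DMSO, limma adjusted p = 0.0017). Of 14 hox genes, 3 had a higher (21.4%) and 5 a lower region (35.7%), with 3 regions against 8, counted once for each gene since neighbouring hox genes share regions. The hox genes had a median of 44.5 regions each, against 21 over all 1674 genes. Of the regions tested near them, 0.652% ranked higher and 1.74% lower, below the 2.75% and 4.84% near all genes. These shares count repeats. The lower regions of hoxa11a, hoxa3a and hoxa5a were the same 2 regions, of which 1 was also that of hoxa1a. The DMSO-only region 7.86 kb downstream of the hoxb1a start site ranked 64.5, 87.5 and 88.3 in DMSO and 0 in NE (limma adjusted p = 0.000661) and was also counted for hoxb3a. Among 13 genes of RA metabolism and reception, 3 had a higher (23.1%) and 4 a lower region (30.8%), with 4 regions (1.95% of those tested) against 11 (5.37%). The nuclear receptor gene nr2f5 had 5 lower regions and no higher one, while cyp26a1, which codes for the main RA-degrading enzyme of the gastrula, had none. Of 6 endothelial genes, 3 had a higher and 4 a lower region, with 5 regions against 6.

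Promoters differed less often than distal regions. Of the regions within 1 kb of a positioned start site, 41.2% were called in all 6 samples, against 18.1% at 1 to 10 kb and 17.0% at 10 to 50 kb. Near the start sites, 0.647% of 1546 tested regions ranked higher and 1.36% lower in DMSO, against 3.48% and 5.30% at 1 to 10 kb and 2.93% and 5.41% at 10 to 50 kb. These 10 higher and 21 lower regions were too few to describe a class. Of the higher ones, 5 lay at endoderm-enriched genes, namely mylkb, si:dkey-25o16.2, polr2m, ttll7 and crb3b. Among the lower ones, met was such a gene. Of all 1674 genes with a position, 125 were endoderm-enriched, and their share among all regions tested near start sites was not counted. The region at the start of mylkb, a myosin light chain kinase, ranked 83.4, 91.8 and 87.0 in DMSO and 0, 36.2 and 6.58 in NE (limma adjusted p = 0.00358). The smallest p belonged to a region 744 bp downstream of the start of elf2b, an ETS factor gene, with ranks of 90.5, 96.4 and 96.2 in DMSO and none in NE (limma adjusted p = 9.83e-06). The lower ones included the start sites of elavl3, of her13, a segmentation gene, of inhbaa, which codes for an activin subunit, and of lrrtm1, a neuronal adhesion gene.

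Exclusive regions of one kind lay near others of the same kind. Of the DMSO-only regions, 8.97% (interval 7.86 to 10.2%) had another DMSO-only region within 10 kb, against 4.08% (3.87 to 4.30%) of the regions called in all 6 samples. Of the NE-only regions, 15.2% (14.3 to 16.1%) had another NE-only region within 10 kb, against 8.22% (7.94 to 8.52%) of the shared ones. Across kinds, 8.31% of the DMSO-only regions had an NE-only region within 10 kb and 3.46% of the NE-only regions had a DMSO-only one, near the shares of the shared regions. Of 13572 windows of 100 kb with a region, 1934 held a DMSO-only and 4093 an NE-only region, and 593 held both. The richest for DMSO lay at 10.2 to 10.3 Mb on chromosome 17, with 6 DMSO-only regions, 8 limma calls higher and none lower among 33 regions. For NE, windows at 36.3 Mb on chromosome 14 and at 4.9 Mb on chromosome 24 held 7 NE-only regions each and no DMSO-only one. None of these 3 windows lay within 50 kb of a positioned gene. The window at 16.5 Mb on chromosome 4, next to the proneural gene ascl1a, held 6 NE-only regions and 1 DMSO-only region.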

How the data were processed

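ATAC-seq libraries were made from sorted cells with 3 samples per condition, and the conditions were taken from the labels. For NE, the run names inside the files carry other replicate numbers than the labels do, which were followed. The authors mapped reads to Zv9 with bowtie2 and called peaks at q 0.05 with MACS2 (version 2.1.1.20160309), sample by sample and with no control library, with tags shifted by 40 bp towards the 3′ end and extended to 80 bp, which can displace a summit. At most 1 duplicate per position was kept, which caps the pileup of tall peaks. Deposited pileups are an unscaled signal (tags at the summit). Fold enrichment, as deposited, is a ratio to a local background. For p- and q-values the authors deposited the −log10, and the p-value and q-value columns were used only for the threshold and for ranks. Ranks remove differences of depth only in part.

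Peaks were merged in Python 3.11.15 with numpy 2.4.6 and pandas 2.3.3, and the regions were checked against bedtools 2.31.1. limma 3.58.1 in R 4.3.3 was fitted to the ranks of all 12 samples with the trend and robust options, on regions called in at least 3 samples, and the DMSO minus NE contrast was adjusted by the method of Benjamini and Hochberg (threshold 0.05). The steps were tested on simulated data. Exact permutation tests and Wilson intervals used scipy 1.17.1. From the study's tables, those of differential peaks included, only gene names and positions were taken. Their fold changes and p-values were not used.

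The named regions were the 10 per direction that were exclusive to one condition on chromosomes 1 to 25, called by limma, and highest in their weakest sample, the 5 per direction with the largest difference among regions called in all 6 samples, and the 5 windows of 100 kb per direction richest in exclusive regions. Genes came from lists of markers, by the number of limma calls within 50 kb, and some listed genes are counted but not reported singly here. The members and lists were chosen with earlier results of these data known. Genes singled out by their counts or at start sites were chosen after their values were seen. The settings tried besides were a −log10(q) of at least 3, lists of equal length (51301 peaks), merging within 100 bp, peaks that cover 50% of a region, chromosomes 1 to 25, no filter, ranks of −log10(q), a replicate block, the 6 samples alone, distances of 10 and 100 kb, and leaving out each sample in turn.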

Additional observations from a re-analysis of the deposited data

How the results depend on the processing

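Presence counts depended on the setting. With lists of equal length there were 3619 DMSO-only and 3724 NE-only regions, with lists of equal length without DMSO replicate 1, a setting chosen after seeing the data, 7434 DMSO-only and 5450 NE-only regions and 5900 higher regions (54.6% of the limma calls), and with peaks that cover 50% of a region 1400 DMSO-only regions. limma then called 4505 regions higher with lists of equal length and 1280 with the 50% cover, and 3915 lower without the filter. The 6 samples alone gave 0 calls in both directions, hence 0 endoderm-enriched genes with a higher and 0 with a lower region, with 95041 regions tested. The share of DMSO-only regions called in all treated samples was 44.3% with lists of equal length and 45.0% with the 50% cover, and that of NE-only regions called in none was 61.0% at a −log10(q) of at least 3, 63.1% with lists of equal length and 67.7% with the 50% cover. Endoderm-enriched genes with a higher region numbered 42 with the 50% cover and 28 within 10 kb, and those with a lower region 21 without the filter, 7 within 10 kb and 73 within 100 kb.

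Leaving out each sample in turn gave 2461 to 9127 DMSO-only and 5963 to 11222 NE-only regions, 1448 to 5345 regions higher and 1935 to 5045 lower, shares of 19.0 to 49.0% of DMSO-only regions in all treated samples and 43.7 to 59.7% of NE-only regions in none, and 43 to 93 endoderm-enriched genes with a higher and 8 to 33 with a lower region. The highest counts of DMSO-only and higher regions and of genes with a higher region came without DMSO replicate 1. The mean number of peaks in DMSO minus that in NE ranged from −33546 to 1521 (all samples −20049), and it turned positive without DMSO replicate 1.

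The replicate numbers showed no clear pairing of the samples. Deviations of DMSO and NE samples with the same number correlated at 0.0286, 0.0444 and −0.0278, and those with other numbers at −0.129 to 0.0991. Since the run names of NE carry other numbers than the labels, these values cannot exclude a pairing. In the fit with a replicate block, 2618 regions ranked higher and 5633 lower, and 67 and 32 endoderm-enriched genes had such a region. The 204 regions named by rule or called near a listed gene kept their direction in every setting in which they could be fitted. They were chosen from these same samples by their calls or differences, so that the kept direction is no separate support. With lists of equal length, 144 of the 204 could be fitted, of which 9 missed the threshold. In the fit of the 6 samples alone all 204 missed the threshold, with the 50% cover 56 of 177, without the filter 38 of 204, with the block 10 of 204, and in the fits that left out 1 sample 288 of 1092.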
